A study of Mus musculus with 4 samples.

Results

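The small leucine-rich proteoglycans DCN, LUM, BGN, OGN, FMOD, ASPN and PRELP are described here in the anterior and posterior lobes of the mouse cerebellum at postnatal day 7. They were chosen by gene symbol, and every probe that the array assigns to one of these 7 symbols was taken, 14 probes of the 45281 on the chip. The samples were total RNA of the dissected anterior lobes and of the dissected posterior lobes of untreated Swiss mice at the same age, with 2 samples per lobe and 1 Illumina MouseWG-6 v2.0 array per sample. The lobes were dissected whole, so that each sample held the neurons and glia of the lobe with any vessels and meninges that stayed attached, and neither the number of animals per sample nor their sex was stated. The study compared the lobes in its work on Tlx3, a homeobox factor of granule neuron progenitors. No source says that the samples of a lobe came from separate animals, so the p-values measure only the spread between these samples, which may be technical.

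Small leucine-rich proteoglycans are secreted proteins whose core is a curved stack of leucine-rich repeats. Most of them carry chondroitin, dermatan or keratan sulfate chains, and they bind collagen fibrils and set their diameter and spacing. Decorin (DCN), biglycan (BGN) and asporin (ASPN) form class I of the family, fibromodulin (FMOD), lumican (LUM) and PRELP belong to class II, and osteoglycin (OGN), also named mimecan, to class III. In the brain, where the parenchyma holds little fibrillar collagen, decorin, lumican and osteoglycin are known mainly from the fibroblasts of the meninges and of the perivascular space. A whole-lobe sample does not show which cells made a transcript, and fewer cells of a type and less RNA per cell cannot be told apart in it.

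Promoters of OGN, FMOD, PRELP and, as a member without a lobe difference past a test, BGN are shown first, because the 250 bases before the start site are what can be read of their control from the gene tables. The RefSeq promoter table (build GRCm38.p6) held entries for OGN, FMOD, PRELP, BGN and ASPN, 5 of the 7 members, and none for DCN and LUM. OGN had the largest difference of the 6 tested members, and PRELP and FMOD are neighbours on the chromosome. The stretches printed lie at chr13:49607765-49608014 on the plus strand for OGN, chr1:134037004-134037253 on the plus strand for FMOD, chr1:133921402-133921651 on the minus strand for PRELP and chrX:73483351-73483600 on the plus strand for BGN, each 5′ to 3′ up to the base before the start of the gene. Capitals mark matches, on either strand, to TATAAA, the TATA box, to GGGCGG, the GC box, to GTAAACA, a forkhead core, or to TGANTCA, an AP-1 core.
OGN: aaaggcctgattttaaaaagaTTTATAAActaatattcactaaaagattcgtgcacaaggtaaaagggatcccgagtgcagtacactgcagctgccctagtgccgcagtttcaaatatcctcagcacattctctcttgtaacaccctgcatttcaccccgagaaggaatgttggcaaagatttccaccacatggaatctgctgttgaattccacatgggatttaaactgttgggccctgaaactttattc
FMOD: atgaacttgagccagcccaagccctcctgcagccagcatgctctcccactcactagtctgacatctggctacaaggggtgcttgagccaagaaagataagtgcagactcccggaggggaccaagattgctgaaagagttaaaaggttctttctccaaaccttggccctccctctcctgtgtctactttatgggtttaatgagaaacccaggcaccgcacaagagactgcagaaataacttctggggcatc
PRELP: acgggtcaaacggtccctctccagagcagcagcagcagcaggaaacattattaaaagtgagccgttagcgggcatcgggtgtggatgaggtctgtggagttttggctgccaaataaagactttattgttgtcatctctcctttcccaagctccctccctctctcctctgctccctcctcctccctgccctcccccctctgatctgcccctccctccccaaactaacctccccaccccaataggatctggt
BGN: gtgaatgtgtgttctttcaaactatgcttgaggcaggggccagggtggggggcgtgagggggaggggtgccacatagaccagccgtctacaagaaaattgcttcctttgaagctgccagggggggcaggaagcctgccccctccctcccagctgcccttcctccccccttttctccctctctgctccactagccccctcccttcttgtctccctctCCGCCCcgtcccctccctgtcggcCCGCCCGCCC

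OGN held 2 overlapping TATA box matches, which began 229 and 227 bases before the start, and ASPN held 2 as well, at 207 and 178 bases. BGN held 3 GC box matches, at 34, 10 and 6 bases, the last 2 of which overlap, and no TATA box. FMOD and PRELP held none of the 4 motifs. Among all 32851 promoter windows of the same length, 12.4% held TATAAA, 32.7% held GGGCGG, 3.17% held GTAAACA and 6.75% held TGANTCA. The GC content was 42.0% in OGN, 51.2% in FMOD, 55.6% in PRELP and 64.4% in BGN, against a median of 52.4% over all windows. A match is a description of these letters and not a binding site.

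On each array between 46.5% and 47.6% of the probes had a detection p-value under 0.05, which is the share of negative controls that reach the brightness of the probe. The median intensity lay between 110.2 and 129.6. After quantile normalization, tested probes differed between the replicates with an SD of 0.318 on the log2 scale in the anterior lobe and of 0.203 in the posterior lobe. Of 10 markers of granule neurons, the most abundant neurons of the cerebellum, 8 were bright enough to be tested. Lobe differences, posterior minus anterior, were tested by limma on the 21726 probes of 15615 gene symbols that were detected on at least 2 of the 4 arrays. The smallest two-sided p that an exact permutation of 2 and 2 arrays can give is 0.33, and each call therefore leans on the variance that limma pools over probes.

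Of the 14 probes of the 7 members, 9 probes of 6 genes passed the detection filter and 5 probes were not detected on any array. Osteoglycin and decorin rose in the posterior lobes. The brightest probe of DCN and the one detected probe of OGN passed an adjusted p of 0.05, both with a higher signal in the posterior lobes, and no member probe passed it with a lower signal. In the same fit 0.0736% of all tested probes passed it with a higher and 0.0322% with a lower posterior signal. The criterion in the study's methods was more than 1.2-fold with p below 0.05, taken here before adjustment. By it 6 of the 9 tested probes were higher, against 3.3% of all tested probes, and 1 was lower, against 5%. Probes of the same gene, as those of DCN, are not separate members. With the brightest tested probe of each gene, 4 of the 6 genes were higher, against 3.45% of all tested genes, and 1 was lower, against 4.46%. For 7 of the 9 probes each posterior array exceeded each anterior one, which 21.1% of all tested probes showed, and below them for 2, which 21.5% showed. A fit without 1 posterior array has a single array in that lobe, so that no count of members is read from it. The median log2 difference over the 9 probes was 0.51, beside 0.0023 over all tested probes. The 9 probes are those that passed the filter. A probe seen in one lobe alone enters through that lobe, as those of FMOD and DCN (ILMN_1254458) did, and the members were chosen with earlier results of these arrays known, so that these counts are a description.

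**Figure D1:**
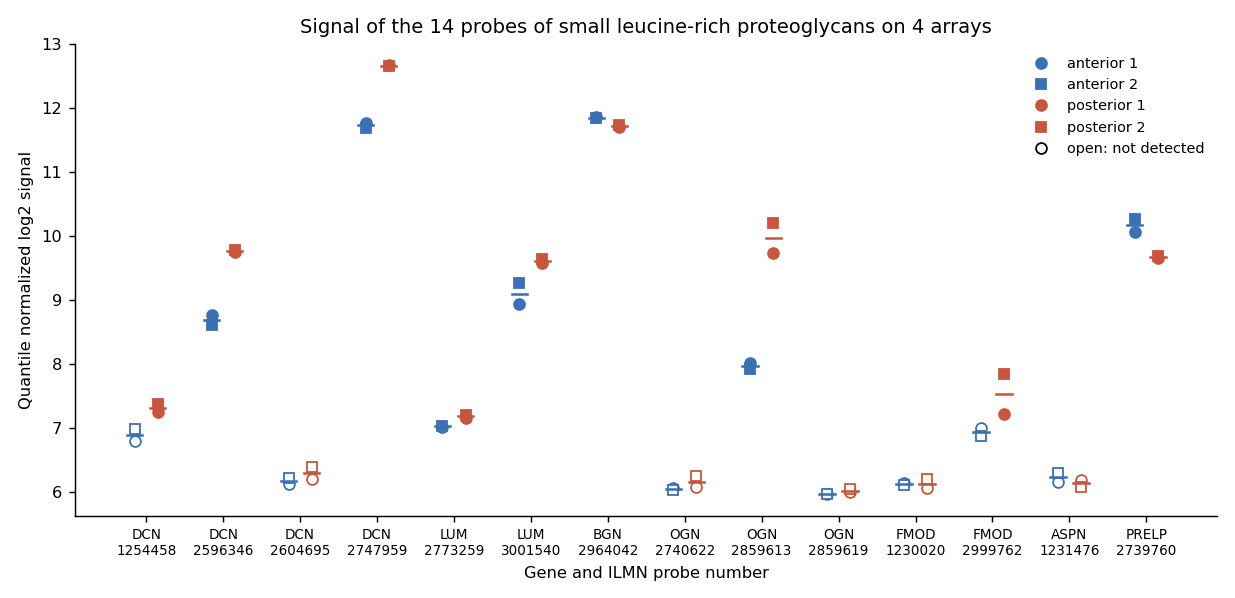
Quantile normalized log2 signal of the 14 member probes on each of the 4 arrays, by lobe and replicate number, with the lobe mean as a bar; open symbols are arrays on which the probe was not detected. The probes of DCN and OGN that were detected on all 4 arrays sit higher on both posterior arrays, that of PRELP lower, and 5 probes stay at background on every array.

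Decorin, a collagen-binding proteoglycan that also holds growth factors of the TGF-beta family in the matrix, was measured by 4 probes. The intensity of ILMN_2747959 was 3755.8 and 3073.1 on the anterior arrays and 6334.0 and 6554.4 on the posterior arrays. The posterior arrays were both brighter than either anterior array, and they lay closer to each other than the anterior arrays did. The normalized log2 signal averaged 11.73 ± 0.057 (SD, n = 2 arrays) anteriorly and 12.66 ± 0.0088 posteriorly. The log2 difference was 0.93 (standard error 0.071, 95% interval 0.76 to 1.11, adjusted p = 0.024 by limma), a 1.91-fold higher posterior signal.

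The other bright probe of DCN, ILMN_2596346, had intensities of 472.4 and 357.3 in the anterior and 835.7 and 887.0 in the posterior lobes, again with no overlap. Its log2 difference of 1.08 (standard error 0.12, 95% interval 0.79 to 1.37, adjusted p = 0.062 by limma) lay close to that of the first, with overlapping intervals, and missed the threshold. The dim probe ILMN_1254458 was not detected on either anterior array, at 118.5 and 114.2, and was detected on both posterior arrays, at 153.3 and 167.2. Against the lowest signal of detected probes on the anterior arrays its mean posterior signal was at least 1.23-fold higher (adjusted p = 0.32 by limma). The 95% interval of the fitted log2 difference was 0.16 to 0.69. The last probe, ILMN_2604695, was not detected on any array, with intensities between 69.7 and 85.2. DCN was thus measured in both lobes by 2 probes, which had the same direction, while ILMN_1254458 entered the test through the posterior arrays alone, so that its direction adds nothing.

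Osteoglycin was measured by 3 probes, of which 1 was detected. ILMN_2859613 had intensities of 282.1 and 223.3 in the anterior and 824.6 and 1192.4 in the posterior lobes. Each posterior array was far above both anterior arrays, and the posterior arrays differed from each other by more than the bead error of the array, the standard error over the beads that carry the probe, which was 36.6 and 34.9 on them. On the log2 scale this gave 7.97 ± 0.059 (SD, n = 2 arrays) anteriorly and 9.97 ± 0.34 posteriorly. The log2 difference was 2.00 (standard error 0.18, 95% interval 1.56 to 2.44, adjusted p = 0.035 by limma), a 4.00-fold higher posterior signal, and only 0.0921% of the tested probes had a difference at least as large in either direction. The remaining probes, ILMN_2740622 and ILMN_2859619, were not detected on any array, at intensities between 59.2 and 76.6, so that the rise of OGN rests on a single probe.

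The calls of DCN (ILMN_2747959) and OGN were made with both posterior arrays and leaned on the intensity trend in the variance. Without that trend the adjusted p by limma was 0.073 for DCN and 0.063 for OGN. A fit without 1 posterior array has a single array in that lobe, so that no call can be read from it. Without posterior replicate 1 and without posterior replicate 2, in that order, the log2 differences lay at 0.92 and 0.94 for DCN. For OGN they lay at 2.24 and 1.76.

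**Figure D2:**
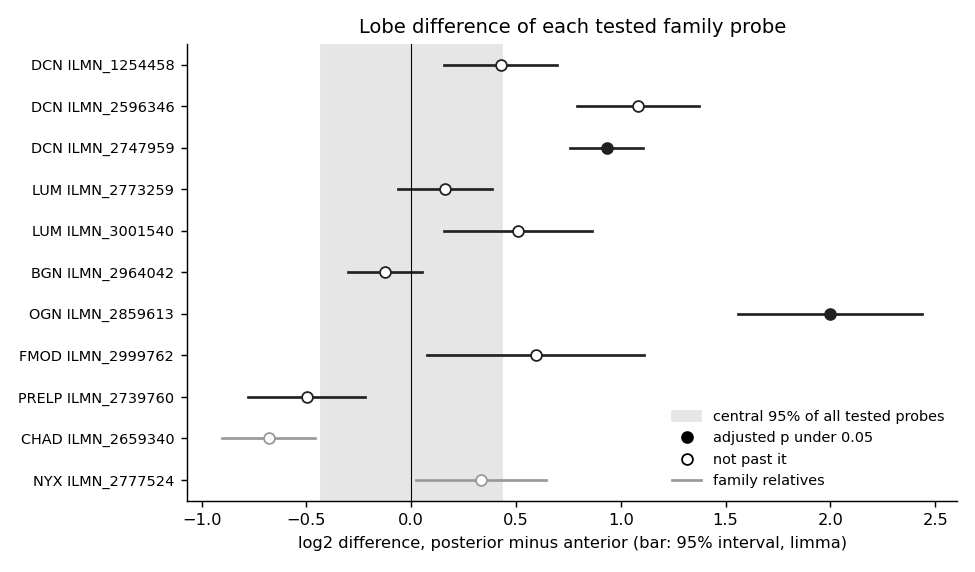
log2 difference, posterior minus anterior, of the 9 tested member probes and the 2 tested probes of family relatives, with 95% intervals by limma; filled symbols passed an adjusted p of 0.05 and the grey band holds the central 95% of all tested probes. OGN, the bright probes of DCN and LUM, and FMOD lie outside the band on the posterior side, PRELP and CHAD outside it on the anterior side, and BGN inside it; FMOD, CHAD and DCN ILMN_1254458 were not detected in 1 lobe, so that their differences are against background.

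Lumican, a keratan sulfate proteoglycan that regulates collagen fibrils in the cornea and other connective tissue, was measured by a bright and a dim probe. The intensity of ILMN_3001540 was 537.1 and 572.0 in the anterior and 741.5 and 808.5 in the posterior lobes. The groups did not overlap, but the normalized anterior signals were spread, at 8.94 and 9.26, against 9.58 and 9.64 in the posterior lobes. Its log2 difference was 0.51 (standard error 0.14, 95% interval 0.16 to 0.86, adjusted p = 0.36 by limma), past the 1.2-fold criterion only. The dim probe ILMN_2773259, with intensities of 139.1 and 118.1 in the anterior and 143.7 and 150.2 in the posterior lobes, was detected on 3 arrays and had a log2 difference of 0.16 (95% interval -0.064 to 0.38, adjusted p = 0.60 by limma).

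Fibromodulin, which binds collagen close to the site of lumican, had 1 probe above background in the posterior lobes alone. ILMN_2999762 had intensities of 137.3 and 106.2 in the anterior lobes, where it was not detected, and of 148.7 and 230.5 in the posterior lobes. Posterior replicate 2 carried most of the difference, with posterior replicate 1 only a little above the anterior arrays. The mean posterior signal of FMOD was at least 1.43-fold higher by the bound described for DCN (adjusted p = 0.44 by limma). This bound holds for the mean of the 2 arrays alone, and the 95% interval of the fitted log2 difference was 0.076 to 1.11. Its probe ILMN_1230020 was not detected on any array, at 64.9 to 74.3. Asporin, a class I relative of decorin, had a single probe, ILMN_1231476, which was not detected on any array, with intensities of 75.1 and 73.1 in the anterior and 73.2 and 68.3 in the posterior lobes, so that it gives no difference.

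Biglycan and PRELP did not move with decorin and osteoglycin. BGN, a class I proteoglycan with a pair of glycosaminoglycan chains that is made by vessel cells as well as fibroblasts, had intensities of 3990.4 and 3404.1 in the anterior and 3253.1 and 3492.7 in the posterior lobes on ILMN_2964042. The raw intensities overlapped, while the normalized posterior signals, 11.71 and 11.74, lay just under the anterior ones, 11.86 and 11.84. The log2 difference was -0.12 (standard error 0.072, 95% interval -0.30 to 0.051, adjusted p = 0.60 by limma). That interval bounds a posterior increase of BGN at 0.051 on the log2 scale (the lower limits were 0.76 and 0.79 for the bright DCN probes and 1.56 for OGN). The difference between BGN and these members was not tested.

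PRELP, which binds heparan sulfate through its N-terminus and anchors basement membranes to connective tissue, was the one member with a lower posterior signal past the 1.2-fold criterion. ILMN_2739760 had intensities of 1161.4 and 1160.5 in the anterior and 780.5 and 832.8 in the posterior lobes. Both anterior arrays were brighter than both posterior arrays. The anterior mean was 10.17 ± 0.14 on the log2 scale (SD, n = 2 arrays) and the posterior mean 9.67 ± 0.023, with a log2 difference of -0.50 (standard error 0.11, 95% interval -0.78 to -0.22, adjusted p = 0.27 by limma). The markers of oligodendrocytes, the myelinating glia, moved to the same side. Of the 11 in the list 10 were tested, 9 of them were past the 1.2-fold criterion with a lower posterior signal, and their summed intensity was 118240 and 101110 in the anterior and 76898 and 74179 in the posterior lobes. Their part in the PRELP difference was not tested. In that list MAL, MOBP and MAG fell by 1.53, 1.14 and 0.99 on the log2 scale (adjusted p = 0.049, 0.015 and 0.015 by limma), and MOG had a log2 difference of -1.41 (adjusted p = 0.062).

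The members other than BGN lie in clusters that also hold relatives of the family. DCN and LUM are neighbours on chromosome 10, followed by KERA and EPYC, which code for keratocan and epiphycan of the cornea and cartilage and were not detected on any array. On chromosome 13 OGN stands at the end of a row of ECM2, ASPN and OMD, none of which was detected, so that OGN alone of the 4 gave a measurement. On chromosome 1 PRELP and FMOD are neighbours beside OPTC, and PRELP had a log2 difference of -0.50, while FMOD, undetected in the anterior lobes, has only the bound given above. The difference between these neighbours was not tested. Genes of the plasma membrane calcium pump flank 3 of the groups, and their log2 differences were -0.11 for ATP2B1 beside the chromosome 10 cluster, -0.058 for ATP2B4 on chromosome 1 and -0.42 for ATP2B3 beside BGN on the X chromosome (adjusted p = 0.80, 0.88 and 0.59 by limma). Among the other flanking genes with a tested probe, CENPP, a centromere protein gene next to ECM2, lay past the 1.2-fold criterion at 0.42 (adjusted p = 0.29), and the rest, BTG1, IPPK, NOL8, IARS and TREX2, lay between -0.082 and 0.33.

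**Figure D3:**
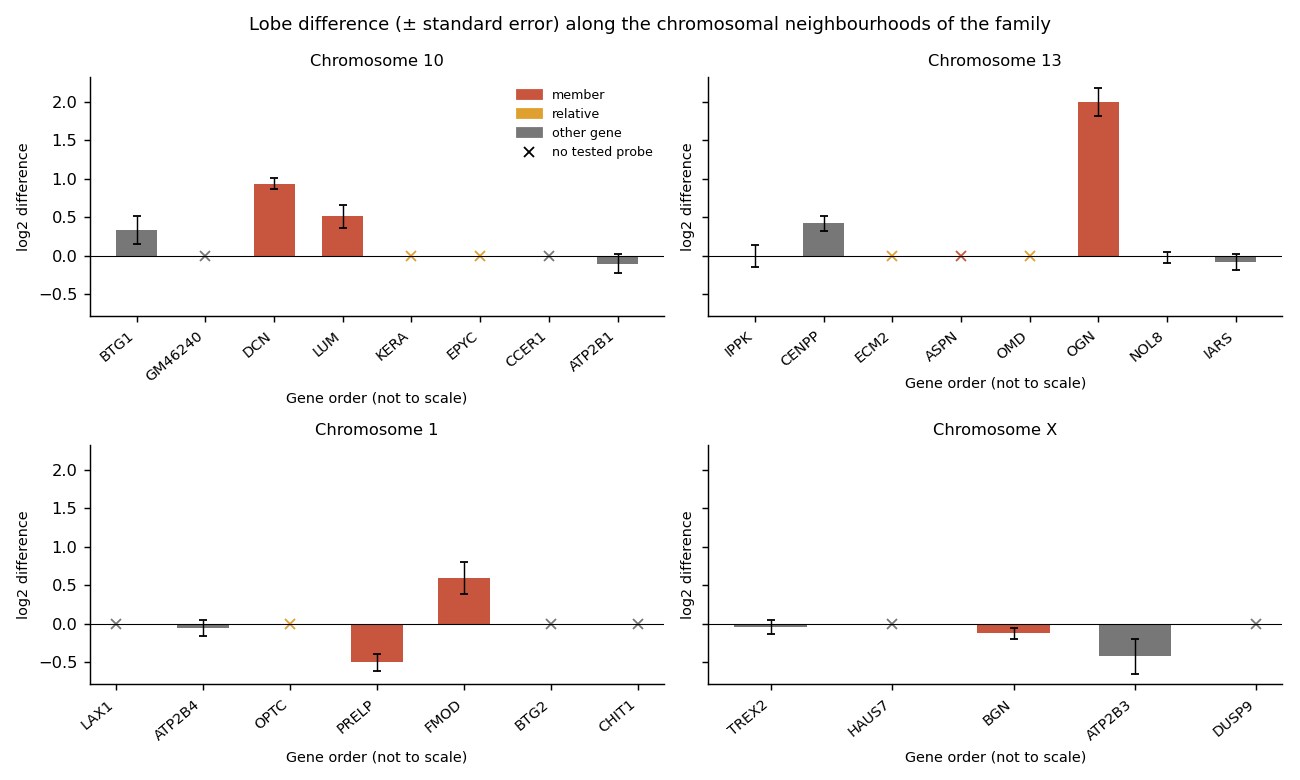
log2 difference, posterior minus anterior, with its standard error by limma (bars and whiskers) for the brightest tested probe of each protein-coding gene, in gene order along the 4 chromosomal neighbourhoods (order from RefSeq, GRCm38.p6; distances not to scale); crosses are genes without a tested probe. DCN and LUM are both above 0, PRELP is below it, FMOD is above it against an anterior signal at background, and most flanking genes lie near 0.

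Of the 10 relatives of the family on the array, NYX and CHAD were tested and 8 were not. Nyctalopin (NYX), a proteoglycan of retinal bipolar cells, had intensities of 235.2 and 229.1 in the anterior and 287.3 and 294.4 in the posterior lobes on ILMN_2777524, and a log2 difference of 0.33 (adjusted p = 0.46 by limma). The other NYX probe, ILMN_3090954, was not detected on any array, with intensities between 71.1 and 86.2. Chondroadherin (CHAD), a matrix protein of cartilage, was detected on both anterior arrays at 164.1 and 131.4 and on neither posterior array at 96.0 and 91.2, at least 1.12-fold lower in the posterior lobes (adjusted p = 0.090 by limma). Both passed the 1.2-fold criterion, CHAD only against posterior signals at background. CHAD entered the test through the anterior arrays alone, so that its direction adds nothing. Tsukushi (TSKU), a secreted inhibitor of several growth factor pathways, was detected on 1 array only, posterior replicate 1, at 213.0, while the others lay between 64.6 and 101.8.

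The genes that act with the members were taken by list, with 1 probe per gene, the brightest that was tested. Among all tested genes, 3.45% passed the 1.2-fold criterion with a higher and 4.46% with a lower posterior signal, 0.0961% and 0.032% passed the adjusted p, and the median log2 difference was 0.0079. Of 16 genes of fibrillar collagens and fibril assembly 12 were tested. LOX, the enzyme that cross-links collagen, COL3A1 and THBS2 were past the criterion with higher posterior signals, at log2 differences of 0.86, 0.49 and 0.33 (adjusted p = 0.21, 0.34 and 0.47 by limma), none was lower, and the median was 0.22. COL1A1, the main chain of type I collagen, had a log2 difference of 0.52 with a standard error of 0.24 and did not pass the criterion. COL1A2, the other chain, had -0.039, but its normalized log2 signals of 7.13 to 7.19 lay close to the dimmest detected probes, at 7.01 to 7.06. A probe this dim says little about COL1A2. COL3A1 was dim as well, at 7.04 and 6.93 in the anterior lobes, and was detected on 3 of the 4 arrays. No collagen or assembly gene passed the adjusted p, and the lowest value was -0.25 for SPARC, which binds collagen as well. How many of these 12 genes were past the criterion with a higher posterior signal moved with the array left out. The count over all tested probes moved as well.

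None of the enzymes that build the sugar chains passed the 1.2-fold criterion. Of 22 genes for the linkage sugars and for chondroitin or dermatan sulfate 15 were tested, with a median log2 difference of -0.039 and a range of -0.37 for B3GAT3 to 0.17. CHST11, a chondroitin sulfotransferase, had -0.22 and FAM20B, the xylose kinase of the linkage, -0.18. Of 12 genes for keratan sulfate 7 were tested, with a median of -0.098, from -0.35 for the sulfotransferase CHST2 to 0.29 for the galactosyltransferase B4GALT1, and CHST1 had -0.17.

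Among 22 ligands, receptors and proteases of the members 19 were tested. CTGF, a matricellular growth factor that decorin binds, was higher with a log2 difference of 0.80 ± 0.22 (standard error) and an adjusted p of 0.34 by limma, and BMP4 and the aggrecanase ADAMTS4 were lower with -0.52 and -0.38 (adjusted p = 0.29 and 0.35). These 3 passed the 1.2-fold criterion and the median of the list was -0.067. The proteoglycans of neural tissue, listed together with link proteins and tenascins, were mixed in direction. Of 23 genes 17 were tested, 7 with a value above 0 and 10 below, and 1 was higher and 3 were lower past the criterion, with a median of -0.056. Neurocan (NCAN), a chondroitin sulfate proteoglycan of the perineuronal matrix, had a log2 difference of -0.98 and the link protein HAPLN4 of -0.57, whereas the glypican GPC3 had 0.92 (adjusted p = 0.31, 0.20 and 0.44 by limma).

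**Figure D4:**
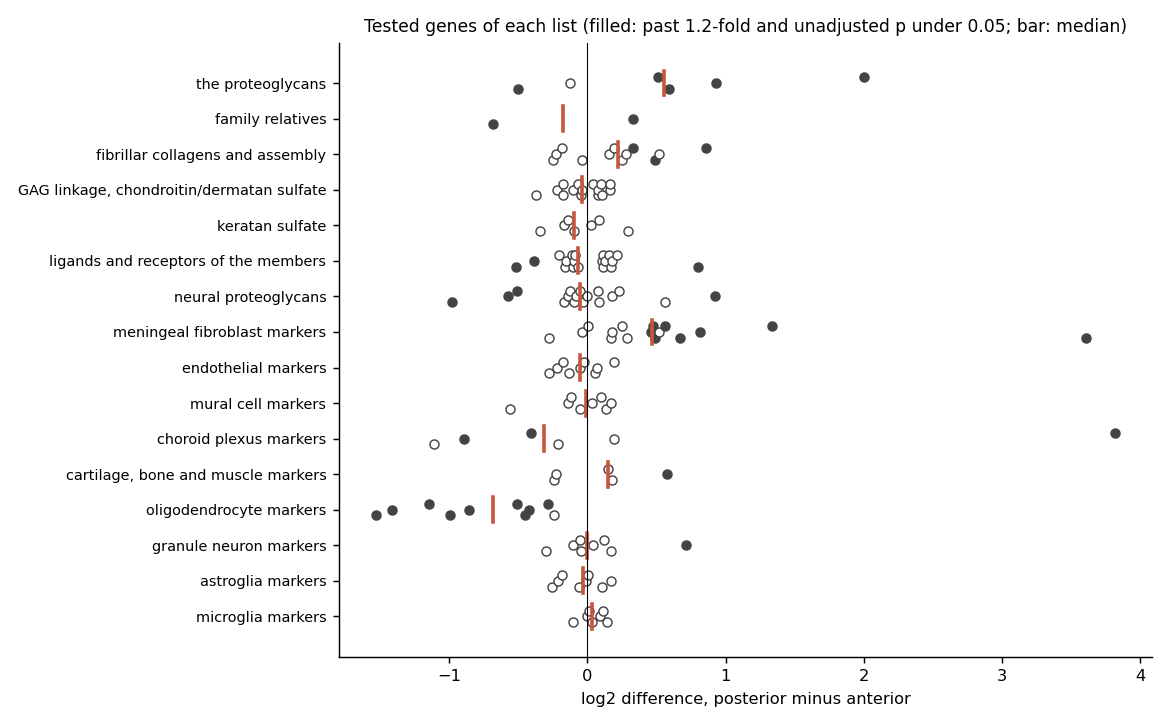
log2 difference, posterior minus anterior, of the tested genes of each list, 1 probe per gene, with the list's median as a bar; filled symbols passed the 1.2-fold criterion with an unadjusted p under 0.05 by limma. The 6 tested proteoglycans and the tested markers of meningeal fibroblasts have medians of 0.55 and 0.47, the lists of sugar chain enzymes lie around 0, and the oligodendrocyte markers lie below 0.

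Some of the markers of meningeal fibroblasts were higher in the posterior lobes. Of 20 markers 16 were tested, 14 with a value above 0, 8 were past the 1.2-fold criterion with higher and none with lower posterior signals, and the median log2 difference was 0.47. This count moved with the array left out, and so did that over all tested probes, in fits with a single array in 1 lobe. COL1A1, COL1A2 and COL3A1 stand in this list and in that of the collagens. PTGDS, the prostaglandin D synthase of the leptomeninges, rose by 3.61 on the log2 scale (adjusted p = 0.015 by limma). The sulfate transporter SLC13A4 had a log2 difference of 1.34 and the retinoic acid binding protein CRABP2, not detected in the anterior lobes, had a posterior signal at least 1.48-fold higher (adjusted p = 0.20 and 0.15 by limma). CRABP2 entered the test through the posterior arrays alone, so that its direction adds nothing to the counts of 14 and 8 or to the median. FOXC2, TBX18 and FOXD1, transcription factors of the list, were not detected on any array, S100A6 lay at 0.0081, and the lowest value of the list was -0.27 for LAMA1 (adjusted p = 0.51), a laminin chain of basement membranes. The summed intensity of the 16 markers was 23314 and 23518 in the anterior and 29747 and 38548 in the posterior lobes. This sum leans on IGF2, the brightest of them, and is not a measure of all 16. PTGDS adds to its rise as well, with normalized log2 signals of 7.91 and 8.13 in the anterior and 11.29 and 11.96 in the posterior lobes. IGF2 had normalized log2 signals of 13.29 and 13.52 in the anterior and 13.72 and 14.03 in the posterior lobes (adjusted p = 0.33 by limma). Their part in the differences of DCN, OGN, LUM and FMOD was not tested.

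Of 10 endothelial markers 9 were tested and of 10 mural cell markers 8, and none in either list passed the 1.2-fold criterion. Their medians were -0.050 and -0.0070, with -0.28 for PECAM1, -0.22 for SLC2A1 and 0.20 for CDH5 among the former and -0.56 for RGS5 (0.052 without anterior replicate 2), 0.17 for ACTA2 and -0.14 for ABCC9 among the latter. Of the 10 markers of cartilage, bone and muscle 5 were tested. MYH3, an embryonic muscle myosin that was not detected on the anterior arrays, had a posterior signal at least 1.15-fold higher (adjusted p = 0.12 by limma), COL9A1 and COL2A1 had -0.24 and -0.23, and the bone markers IBSP, BGLAP1 and SP7 were not detected on any array. The choroid plexus markers varied between samples of a lobe, with summed intensities of 5290.0 and 13929 in the anterior and 8159.9 and 10996 in the posterior lobes. Among them TTR had a log2 difference of -1.11 with a standard error of 1.60, which turned positive without anterior replicate 2 or posterior replicate 1, CLIC6 had -0.89, and OTX2, which is a transcription factor of cerebellar granule cell progenitors as well, rose by 3.82 (adjusted p = 0.84, 0.39 and 0.015 by limma). In the remaining lists ZIC2 among granule neuron markers passed the criterion, with a log2 difference of 0.72 (adjusted p = 0.39 by limma), beside -0.30 for BARHL1 and 0.17 for ZIC1. The largest differences were -0.25 for AQP4, -0.22 for SLC1A2 and -0.18 for ALDH1L1 among astroglial markers, and 0.14, 0.11 and -0.10 for TYROBP, C1QB and TMEM119 among microglial markers.

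The genes whose signal over the 4 arrays was most like that of a member were sought, for the 5 member probes that were themselves detected on all arrays and past the 1.2-fold criterion, among the 19914 probes detected on all arrays, by the root mean square distance between centred log2 profiles. OGN lay closest to H19, an imprinted noncoding RNA of fetal tissue, MGP, the matrix Gla protein that keeps cartilage and vessels from calcifying, and MOXD1, at distances of 0.13, 0.15 and 0.25. Their log2 differences were 2.22, 2.05 and 2.34, beside 2.00 for OGN. The bright DCN probe ILMN_2747959 lay closest to 8030451F13RIK, TAF15 and CAR13, at 0.040 to 0.056, and ILMN_2596346 to TMEM90A, TAF15 and ERAL1, at 0.015 to 0.069. LUM lay closest to CP, FXYD5 and FZD5, at 0.041 to 0.050, and PRELP to FAAH, SS18L1 and EBF2, at 0.014 to 0.019. With 4 arrays such distances describe the profiles and nothing more, and for OGN even the closest genes lay farther away than for the members with smaller differences.

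**Figure D5:**
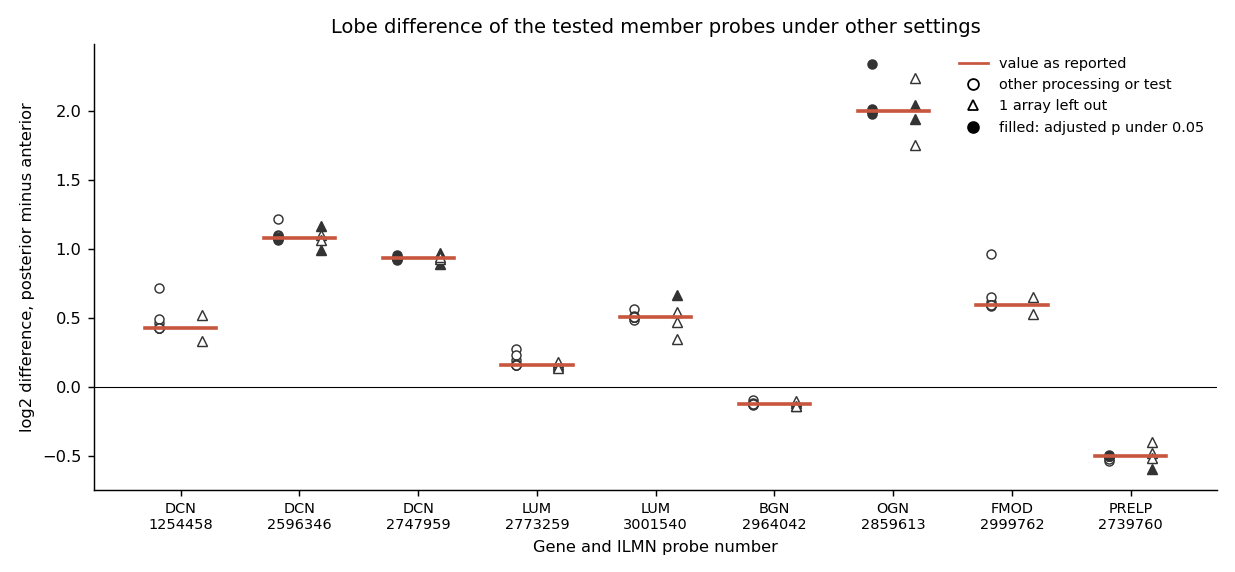
log2 difference, posterior minus anterior, of the 9 tested member probes as reported (bar), under each other processing or test (circles) and with 1 array left out (triangles); filled symbols passed an adjusted p of 0.05. Every probe stays on its side of 0 in each setting that tested it, while the adjusted p of DCN and OGN is lost in some.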

How the data were processed

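The authors deposited, per the file headers, GenomeStudio 1.9.0 output with normalization switched off: for 45281 probes and 4 arrays a mean bead intensity, the SD and number of beads, and a detection score. That deposited score is the fraction of negative controls dimmer than the probe, and the detection p-value used here is its complement to 1. Whether background was subtracted is not given in the sources used here. The lowest intensity on each array lay between 43.6 and 48.8, so that no value was negative, and the main fit made no background correction. Another 16 columns (minima, maxima, array numbers, empty array SDs) were not used.

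Columns were assigned through the sample numbers in the labels. Intensities were quantile normalized between arrays, floored at 1 and log2 transformed, the methods of the study give a threshold of 1 and the log base but no normalization. Probes detected (p under 0.05) on 2 or more arrays were tested in R 4.3.3 with limma 3.58.1 (lmFit, eBayes with an intensity trend), with Benjamini-Hochberg adjustment over all 21726 tested probes. Where a probe was detected on no array of a lobe, its fold is given as a bound, with the fitted difference kept in counts, medians and plots: the detected lobe's mean over a floor, taken on each array as the dimmest detected probe or, where brighter, the probe itself. Such a bound holds for the mean of the measured arrays and takes no account of the spread between them. The fit was tested on simulated data, where it recovered only part of the changed probes.

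The members, lists and tests were chosen with earlier results of these data known. Named are all member probes, the relatives with a tested probe, in each list the genes past the adjusted p and the 3 with the largest difference, and the 3 genes most like each member probe that was detected on all arrays and past the criterion; other genes were named after their values were seen, among them the chromosomal neighbours, TSKU, COL1A2 and the undetected markers. Gene symbols are those of the array, where CTGF stands for Ccn2 and BGLAP1 for Bglap. ADAMTS5 and KCNJ13 had no matching symbol. Alternatives in processing were background correction with nec (offset 16), no normalization, a common 75th percentile, cyclic loess and other detection filters. Alternatives in testing were no trend, a t-test, a replicate block, and leaving out each array. The study names the t-test in its general statistics and no test for the arrays. Gene order and promoters come from RefSeq tables (GRCm38.p6). The small number of arrays limits the precision.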

Additional observations from a re-analysis of the deposited data

How the results depend on the processing

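The log2 differences of the 9 tested member probes kept their direction under every alternative that could test them. Settings change how many pass. Of the member probes, 2 passed the adjusted p with a higher posterior signal; 0 did so with eBayes without the trend and 0 with the t-test, where 3 in place of 6 passed the 1.2-fold criterion. Without the trend the adjusted p was 0.073 for DCN (ILMN_2747959) and 0.063 for OGN by limma. A fit that leaves out 1 array has a single array in 1 lobe. Its variance is taken from the other lobe alone and assumed to hold for the single array, so that no call of a member is read from it. In these fits the log2 difference lay between 0.89 and 0.97 for DCN (ILMN_2747959) and between 1.76 and 2.24 for OGN. For LUM (ILMN_3001540) it lay between 0.35 and 0.66, and for PRELP between -0.60 and -0.40. The median log2 difference of the member probes, 0.51, was 0.72 with nec, 0.14 without a filter, where 14 probes enter, and 0.72 with detection on all 4 arrays or at a detection p-value under 0.01, where 6 enter; leaving out 1 array it lay between 0.35 and 0.55. The meningeal markers past the criterion with a higher signal numbered 2 with the t-test in place of 8. Over all tested probes 294 were past it on that side with the t-test in place of 716.

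Replicate numbers are shared between the lobes, but no source says that equal numbers mark the same animals, and 2 pairs cannot settle it. Across probes, replicate 1 minus replicate 2 in one lobe had r = 0.46 with that in the other. With the replicate number as a block, 3 member probes passed the adjusted p higher, the second bright DCN probe among them (adjusted p = 0.0011 by limma), and 1 lower, PRELP (0.049), with the median at 0.51. Of 54 probes of members, relatives and named genes, 15 passed the adjusted p only with the block, among them TTR (-1.11, adjusted p = 0.0032 by limma), and none was lost with it. Over all tested probes, 23 passed the adjusted p as reported, 123 without normalization, 73 without a filter, 13 without the trend, 0 with the t-test, 588 with the block and 0 to 2538 leaving out 1 array. Past the criterion 716 were higher and 1086 lower as reported, against 977 and 850 at a common 75th percentile.

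Among the marker genes, leaving out 1 array gave from -1.17 to 0.052 for RGS5 (positive without anterior replicate 2), from -3.23 to 1.01 for TTR (1.01 without anterior replicate 2 and 0.63 without posterior replicate 1), from -0.080 to 0.31 for C1QB (negative without the same arrays, -0.016 without the latter) and from -0.31 to 0.11 for TMEM119 (positive without them, 0.058 without the former).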
